A study of Mus musculus with 12 samples.

Results

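The transcript levels of 10 genes of the NRF2 pathway and of glutathione synthesis were compared in mouse liver, out of 34986 genes in the deposited table. The genes were taken by name: the transcription factor gene Nfe2l2, its inhibitor Keap1 and 8 classical NRF2 targets other than the glutathione transferases, namely Nqo1, Gclm, Gclc, Gss, Gsr, Srxn1, Txnrd1 and Slc7a11. All 10 had a row in the table, and all 10 passed the filter on low values.

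The livers came from 12 female C57BL/6 mice aged 16 weeks. Of these, 6 received valproic acid together with obeticholic acid (the VPA_OCA group) and 6 received valproic acid without it (the VPA group). Valproic acid treats epilepsy and is known for liver toxicity in some patients, and obeticholic acid is a semisynthetic bile acid used as an agonist of FXR, the nuclear receptor for bile acids. Both groups carried valproic acid, the labels used here give neither dose nor duration, and mice without valproic acid were not analysed here.

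NRF2, the protein of Nfe2l2, is held by KEAP1 and marked for degradation. When oxidants or electrophiles modify cysteines of KEAP1, NRF2 accumulates, pairs with small MAF proteins and binds antioxidant response elements of genes for glutathione synthesis, thioredoxin recycling and quinone reduction. This control acts largely on protein stability, which transcript counts do not measure. The liver makes glutathione from glutamate, cysteine and glycine, first by glutamate-cysteine ligase (a catalytic subunit, Gclc, and a modifier subunit, Gclm) and then by glutathione synthetase (Gss), and exports it to blood and bile.

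Levels are given as the normalized counts that the authors deposited. Read numbers were estimated by taking 1 scaling factor per library, which the labels do not state. VPA_OCA replicate 1 was sequenced most deeply, to an estimated 37766890 reads, VPA replicate 3 least, to 17879222, and the remaining libraries to 19683964 to 22021646. The FXR-induced transporter gene Slc51b separated the groups as labelled, at 102 to 219 normalized counts in VPA_OCA and 7.27 to 30.8 in VPA, as did Cyp8b1, which FXR represses, at 237 to 859 in VPA_OCA and 1291 to 3357 in VPA. Markers of hepatocytes, Kupffer, endothelial, bile duct and stellate cells were present in every library, and over all libraries their summed levels overlapped between the groups. Skeletal muscle markers summed to 13 to 23.9 in VPA_OCA and 5.27 to 475 in VPA, highest in VPA replicates 4 and 5, and 4 of the 6 were at 0 in most libraries. In both groups the libraries numbered 1 to 3 differed from those numbered 4 to 6, for example in mitochondrial transcripts (9.09% to 11.7% against 5.84% to 7.51% of normalized counts). The labels give no batch for this division, so values within each set of numbers are given beside the pooled ones.

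To show the upstream sequence of the members whose levels were highest relative to VPA, the 250 bases before the RefSeq start site (GRCm38.p6) of Gclm, Srxn1 and Nqo1 are printed 5′ to 3′ along the gene's strand. Capitals mark a match to the core antioxidant response element TGACNNNGC or to the MAF-type element TGANTCAGC, searched on both strands.
Gclm (chr3:122245307-122245556, plus strand): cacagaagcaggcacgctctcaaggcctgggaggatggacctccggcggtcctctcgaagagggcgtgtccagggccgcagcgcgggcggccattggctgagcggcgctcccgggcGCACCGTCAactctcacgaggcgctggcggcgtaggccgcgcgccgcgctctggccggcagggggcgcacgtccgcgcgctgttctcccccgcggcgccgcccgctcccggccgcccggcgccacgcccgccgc
Srxn1 (chr2:152105274-152105523, plus strand): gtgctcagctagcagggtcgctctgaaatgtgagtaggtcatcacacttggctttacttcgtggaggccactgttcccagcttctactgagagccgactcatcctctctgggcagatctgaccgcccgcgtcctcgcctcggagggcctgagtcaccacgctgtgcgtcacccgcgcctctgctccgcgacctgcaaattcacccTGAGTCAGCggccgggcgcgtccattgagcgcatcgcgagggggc
Nqo1 (chr8:107403206-107403455, minus strand): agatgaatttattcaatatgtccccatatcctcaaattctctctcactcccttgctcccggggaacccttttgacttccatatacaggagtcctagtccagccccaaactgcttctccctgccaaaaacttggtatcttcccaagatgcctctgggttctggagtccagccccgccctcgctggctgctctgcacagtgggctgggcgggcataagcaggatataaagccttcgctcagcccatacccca
In Gclm the match was TGACGGTGC on the opposite strand, 134 to 126 bases before the start. Srxn1 held TGAGTCAGC 45 to 37 bases before the start, and the Nqo1 window held no match to either motif. An entry was found for 8 of the 10 genes, with 10 start sites. Of the other genes, Nfe2l2 held TGACTCCGC at 240 to 232 bases and a start site of Txnrd1 held TGACAAAGC on the opposite strand at 92 to 84 bases, while Keap1, Gss and Slc7a11 had no match in this window. Among 32851 mouse windows of the same length, 10.2% held TGACNNNGC and 1.02% held TGANTCAGC, and a match is a description of the letters, not of binding.

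No member passed the test between VPA_OCA and VPA over all libraries. The quinone reductase gene Nqo1, the ligase modifier Gclm and the sulfiredoxin gene Srxn1 had the largest positive differences, at 1.41, 1.32 and 1.24 times the VPA level. The ligase catalytic subunit Gclc lay 1.19-fold lower. The transcripts of NRF2 itself and of KEAP1 differed by less than the spread between mice. When the division of the libraries into numbers 1 to 3 and 4 to 6 was entered as a term, Nqo1 and Gclm passed, both higher in VPA_OCA. With a block for each replicate number neither passed (limma adjusted p of 0.056 for Nqo1 and 0.068 for Gclm).

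By limma-trend on log2(normalized count + 1), with Benjamini-Hochberg adjustment over 19006 genes and a threshold of 0.05, 0 of 10 members were called, where 0.721% of all genes were. At an unadjusted p under 0.05 there were 4 members, 3 higher and 1 lower, where 9.55% of all genes had such a p. Of the 9 members with an adjusted p in the authors' deposited table, 2 were under 0.05, Nqo1 (0.0048) and Gclm (0.011), where 5.57% of the genes it tested were. With the term for the numbers, 2 of 10 members passed, both higher, where 2.13% of all genes passed and 1.34% were higher. The members were chosen with earlier results of these data known. With a block for each replicate number 0 of 10 passed, where 1.10% of all genes did. The median log2 fold change of the members was 0.07, with 6 positive and 4 negative, and that of all genes was -0.00. Fold changes are on the log2(normalized count + 1) scale, which understates changes of low genes. In bulk liver RNA, fewer cells of a type and less RNA per cell cannot be told apart.

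**Figure D1:**
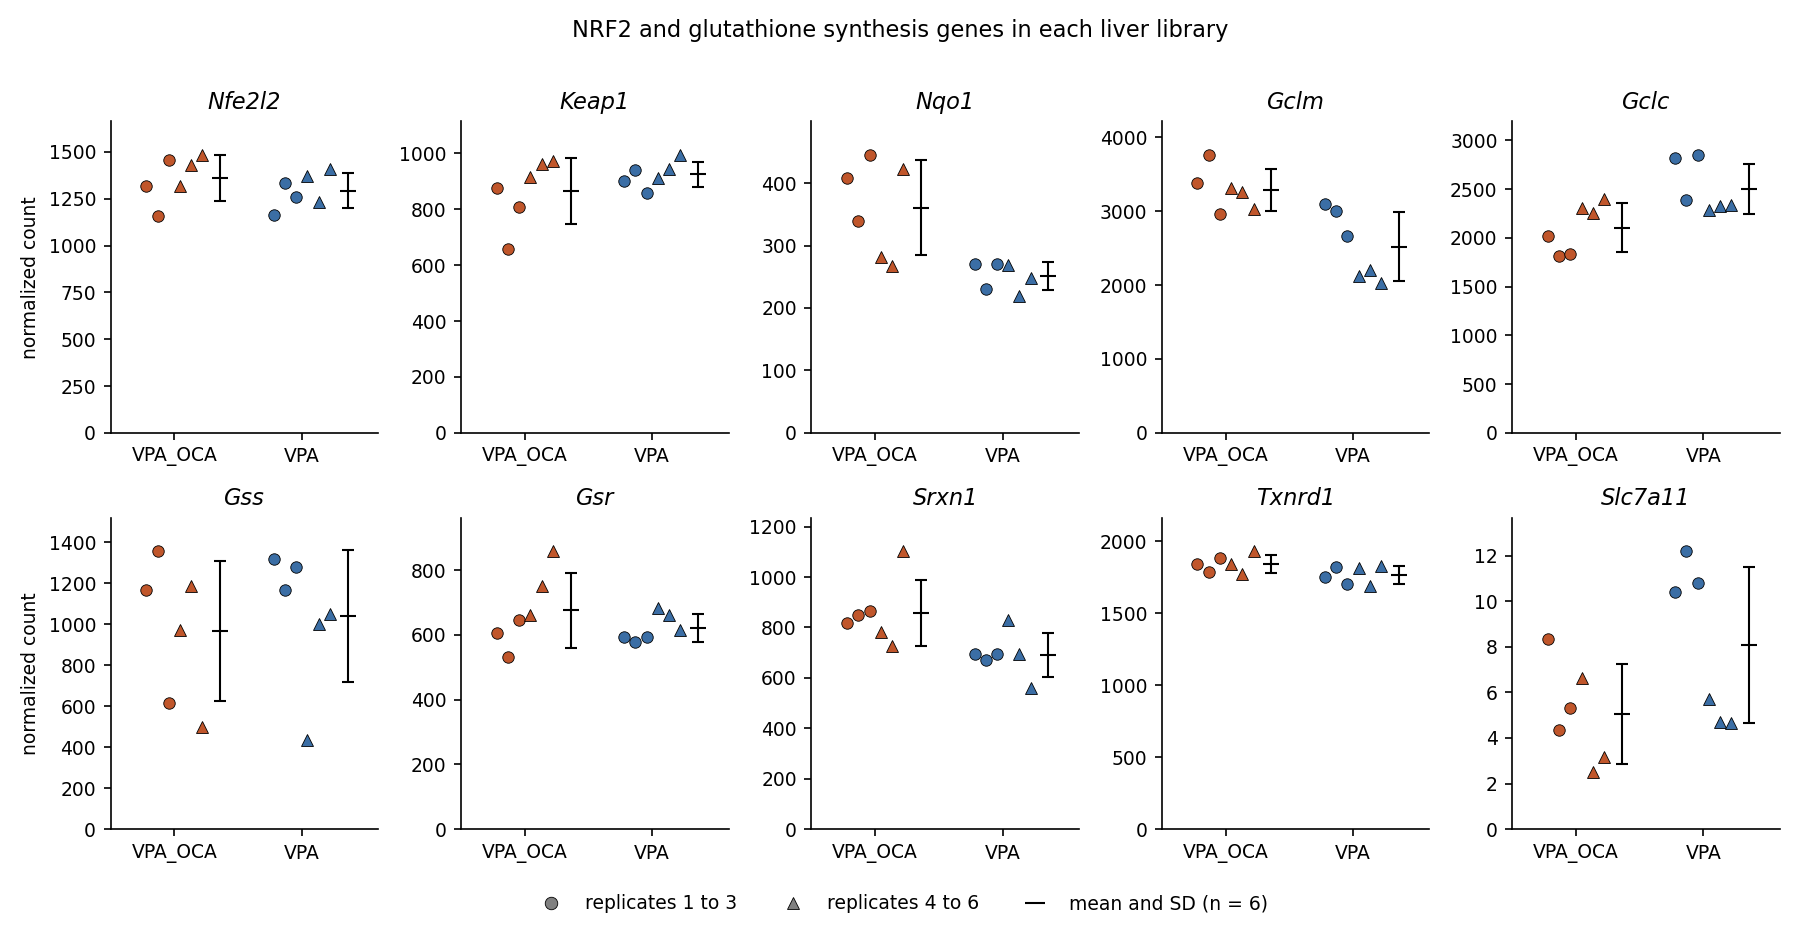
Normalized count of each of the 10 genes in every liver library, with VPA_OCA left of VPA in each panel. Circles are replicates 1 to 3, triangles are replicates 4 to 6, and the bars give the mean and SD of 6 libraries. In every panel the ranges of the groups overlap.

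Nfe2l2 (ENSMUSG00000015839, chromosome 2, 75675513 to 75704641, GRCm38.p5) measured 1158, 1374 and 1485 normalized counts as the lowest, median and highest values of VPA_OCA, against 1163, 1296 and 1409 in VPA. The ranges lay almost on top of each other. Means were 1361 ± 121 in VPA_OCA and 1294 ± 92.5 in VPA (SD, n = 6 each), a log2 fold change of 0.07 ± 0.08 (SE; limma adjusted p = 0.87). It stayed near this value in both sets of libraries, at 0.06 within numbers 1 to 3 and 0.08 within 4 to 6.

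Keap1 (ENSMUSG00000003308, chromosome 9, 21229730 to 21239361), the adaptor that presents NRF2 for ubiquitination, measured 658, 895 and 974 in VPA_OCA against 860, 925 and 995 in VPA. The low end of VPA_OCA came from the libraries numbered 1 to 3, which held 658.4 to 875.8 there, against 859.8 to 939.1 in VPA. The pooled log2 fold change was -0.11 ± 0.10, with a limma adjusted p of 0.82. It was -0.21 ± 0.13 within numbers 1 to 3 and -0.00 ± 0.08 within 4 to 6.

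Nqo1 (ENSMUSG00000003849, chromosome 8, 107388225 to 107403206) encodes NAD(P)H quinone dehydrogenase, which reduces quinones by a pair of electrons at once and is a widely used readout of NRF2 activity. It measured 267, 374 and 445 normalized counts in VPA_OCA, lowest, median and highest, against 219, 258 and 271 in VPA. A single VPA_OCA library lay inside the VPA range and the other 5 above it. Means were 361 ± 75.7 in VPA_OCA and 251 ± 22.3 in VPA (SD, n = 6 each), a log2 fold change of 0.50 ± 0.13 (SE). The limma p was 0.0021 before adjustment and 0.13 after it, 0.041 with the term for the numbers, 0.056 with the replicate block, and 0.074 to 0.27 with single libraries left out.

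The groups were apart for Nqo1 within numbers 1 to 3, at 339.1 to 445.3 in VPA_OCA and 231 to 270.7 in VPA. Within numbers 4 to 6 they overlapped, at 267.3 to 422.1 in VPA_OCA and 219.3 to 268 in VPA. The log2 fold changes were 0.62 ± 0.14 and 0.37 ± 0.17 in these sets (n = 3 per group, limma adjusted p of 0.10 and 0.46), and the difference between the sets did not pass (limma interaction, adjusted p = 0.81).

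Gclm (ENSMUSG00000028124, chromosome 3, 122245557 to 122270732) encodes the subunit that raises the catalytic efficiency of glutamate-cysteine ligase and eases its inhibition by glutathione. It measured 2962, 3285 and 3762 in VPA_OCA against 2025, 2432 and 3096 in VPA. The upper VPA libraries reached into the VPA_OCA range. Means were 3283 ± 286 in VPA_OCA and 2519 ± 466 in VPA (SD, n = 6 each), with a log2 fold change of 0.40 ± 0.12 (SE). The limma p was 0.0037 before adjustment and 0.18 after it, 0.025 with the term for the numbers and 0.068 with the replicate block. With single libraries left out the limma adjusted p was 0.1 to 0.38. Without VPA replicates 4 and 5, the livers highest in skeletal muscle markers, the log2 fold change was 0.299 (limma adjusted p = 0.39). Both are numbered 4 to 6, where VPA Gclm was lower than within 1 to 3. Leaving them out thus also changed the balance of the number sets. VPA replicate 6, lowest of all libraries in skeletal muscle markers (5.27), held the lowest Gclm (2025). The part of muscle in the Gclm result was not tested.

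The difference in Gclm was larger among the libraries numbered 4 to 6. There all 3 VPA_OCA livers, at 3026 to 3317, lay above all 3 VPA livers, at 2025 to 2206, and the log2 fold change of 0.59 ± 0.08 passed over all genes (n = 3 per group, limma adjusted p = 0.02). In this set 0.500% of all genes passed and 0.347% were higher. Within numbers 1 to 3 the groups overlapped, at 2962 to 3762 in VPA_OCA and 2657 to 3096 in VPA, with a log2 fold change of 0.20 ± 0.13 (limma adjusted p = 0.55). The VPA libraries numbered 4 to 6 held less Gclm than the VPA libraries numbered 1 to 3, with means of 2118 ± 90.6 and 2919 ± 232, while the VPA_OCA means were 3199 ± 153 and 3367 ± 400 (SD, n = 3 each). The interaction of group and set had a limma p of 0.018, and an adjusted p of 0.53.

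Within numbers 4 to 6, where Gclm passed, the summed levels of some marker lists did not overlap between the groups either. The 5 endothelial markers summed to 1854 to 2791 normalized counts in VPA_OCA and 3149 to 3370 in VPA, and the 5 stellate cell markers to 3814 to 4350 in VPA_OCA and 4627 to 5231 in VPA. The 5 adipocyte markers, of which Lep was at 0 in most libraries, summed to 65.7 to 127 in VPA_OCA and 157 to 249 in VPA. The 5 bile duct markers summed to 578 to 761 in VPA_OCA and 446 to 565 in VPA. The other marker lists overlapped in this set, and every list overlapped within numbers 1 to 3. The part of these differences in the Gclm result was not tested.

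Gclc (ENSMUSG00000032350, chromosome 9, 77754535 to 77794485) encodes the catalytic subunit, which joins glutamate to cysteine in the rate-limiting step. It measured 1809, 2136 and 2400 in VPA_OCA, against 2286, 2364 and 2851 in VPA. The VPA_OCA libraries numbered 1 to 3 were the lowest of all 12. Of those numbered 4 to 6, replicate 5 (2250) lay just below the lowest VPA library and the other 2 inside the VPA range. Means were 2103 ± 251 in VPA_OCA and 2501 ± 260 in VPA (SD, n = 6 each), with a log2 fold change of -0.25 ± 0.10 (SE) that had a limma p of 0.022 before adjustment and 0.39 after it.

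Within numbers 1 to 3 Gclc was at 1809 to 2021 in VPA_OCA and 2391 to 2851 in VPA, without overlap, and the log2 fold change was -0.51 ± 0.12 (n = 3 per group, limma adjusted p = 0.10). Within numbers 4 to 6 it was at 2250 to 2400 in VPA_OCA and 2286 to 2336 in VPA, and the log2 fold change was 0.00 ± 0.07. The interaction was 0.51 ± 0.13 on the log2 scale, with a limma p of 0.0016 that did not pass adjustment (0.36). In the same sets Gclm had its larger difference in numbers 4 to 6 and Gclc in numbers 1 to 3.

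**Figure D2:**
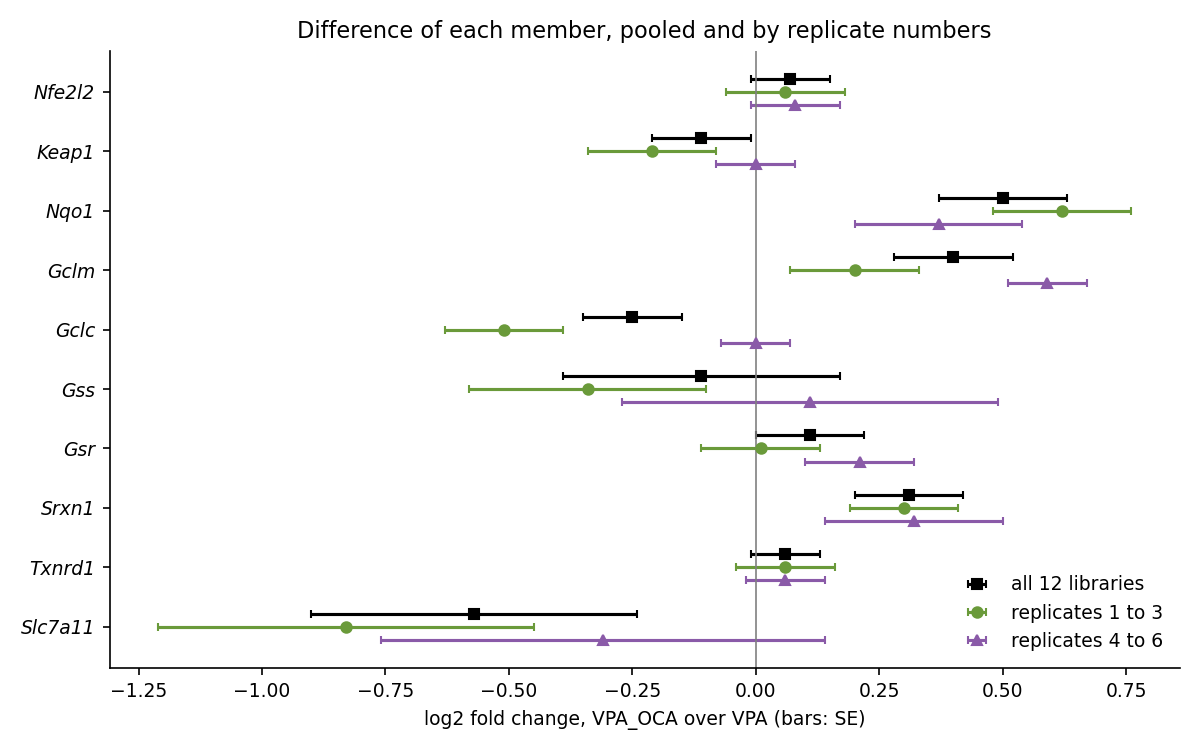
Log2 fold change of each gene, VPA_OCA over VPA, with its SE, over all 12 libraries (black squares), within replicates 1 to 3 (green circles) and within replicates 4 to 6 (purple triangles). Nqo1, Gclm and Srxn1 lie right of 0 in all 3, and Gclc lies at -0.51 within 1 to 3 and at 0.00 within 4 to 6.

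The subunits of the ligase were also compared per length, on the FPKM scale (counts scaled by the length of the gene model and by the library total), a comparison chosen after the values were seen. Gclm over Gclc was 1.82, 2.26, 1.76, 1.57, 1.57 and 1.37 in VPA_OCA replicates 1 to 6, against 1.2, 1.37, 1.01, 1.01, 1.03 and 0.944 in VPA replicates 1 to 6. The lowest VPA_OCA ratio, 1.373, lay just above the highest VPA ratio, 1.368. The mean ratio was 1.73 ± 0.307 in VPA_OCA and 1.09 ± 0.158 in VPA (SD, n = 6 each). In the set numbered 1 to 3 it was 1.76 to 2.26 in VPA_OCA and 1.01 to 1.37 in VPA, and in that numbered 4 to 6 it was 1.37 to 1.57 in VPA_OCA and 0.944 to 1.03 in VPA. The ratio is a description of transcripts, with no test, and holds the differences of both genes given above. Its level depends on the deposited gene lengths, which are the same for every library.

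**Figure D3:**
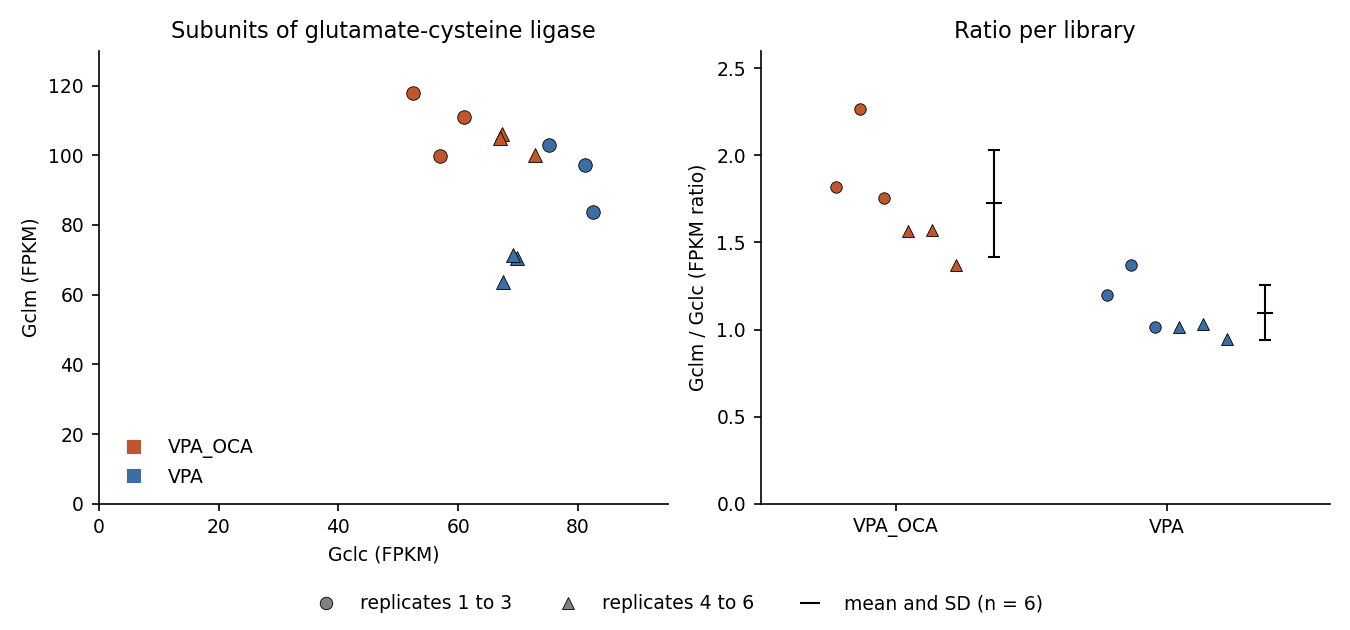
Left, FPKM of Gclm against FPKM of Gclc in each library. Right, the ratio of Gclm to Gclc in each library, VPA_OCA left of VPA, with mean and SD (n = 6). The VPA_OCA ratios run between 1.37 and 2.26 and the VPA ratios between 0.944 and 1.37.

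Gss (ENSMUSG00000027610, chromosome 2, 155563181 to 155592810), whose enzyme adds glycine to complete glutathione, had a wider spread within each group than the difference between the group means. It measured 499, 1071 and 1358 in VPA_OCA against 434, 1110 and 1319 in VPA. Means were 967 ± 342 in VPA_OCA and 1042 ± 323 in VPA (SD, n = 6 each), a log2 fold change of -0.11 ± 0.28 (SE; limma adjusted p = 0.96). VPA_OCA replicates 3 and 6 (616.3 and 498.9) and VPA replicate 4 (434.2) lay far below the other 9 livers, which held 974.7 to 1358.

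The same 3 livers had the 3 highest values of Acss2, the cytosolic acetyl-CoA synthetase gene that overlaps Gss on the opposite strand (chromosome 2, 155517948 to 155585724). Acss2 measured 18920 and 25950 in VPA_OCA replicates 3 and 6 and 28170 in VPA replicate 4, against 3989 to 13160 in the other 9. In GENCODE M21 the genes share 395 exon bases of the 5915 of Gss, and whether counting used strand is not given in the sources used here, so reads of the shared part cannot be assigned with certainty. Me1, Pgd and G6pdx, which make NADPH and were named after their values were seen, were also highest in these 3 livers. Me1 measured 15640 and 17860 in VPA_OCA replicates 3 and 6 and 17150 in VPA replicate 4, against at most 7051 elsewhere. Without these 3 livers, an alternative added after seeing the data, the log2 fold change of Gss was 0.01, and the part of Acss2 in the Gss values was not tested.

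**Figure D4:**
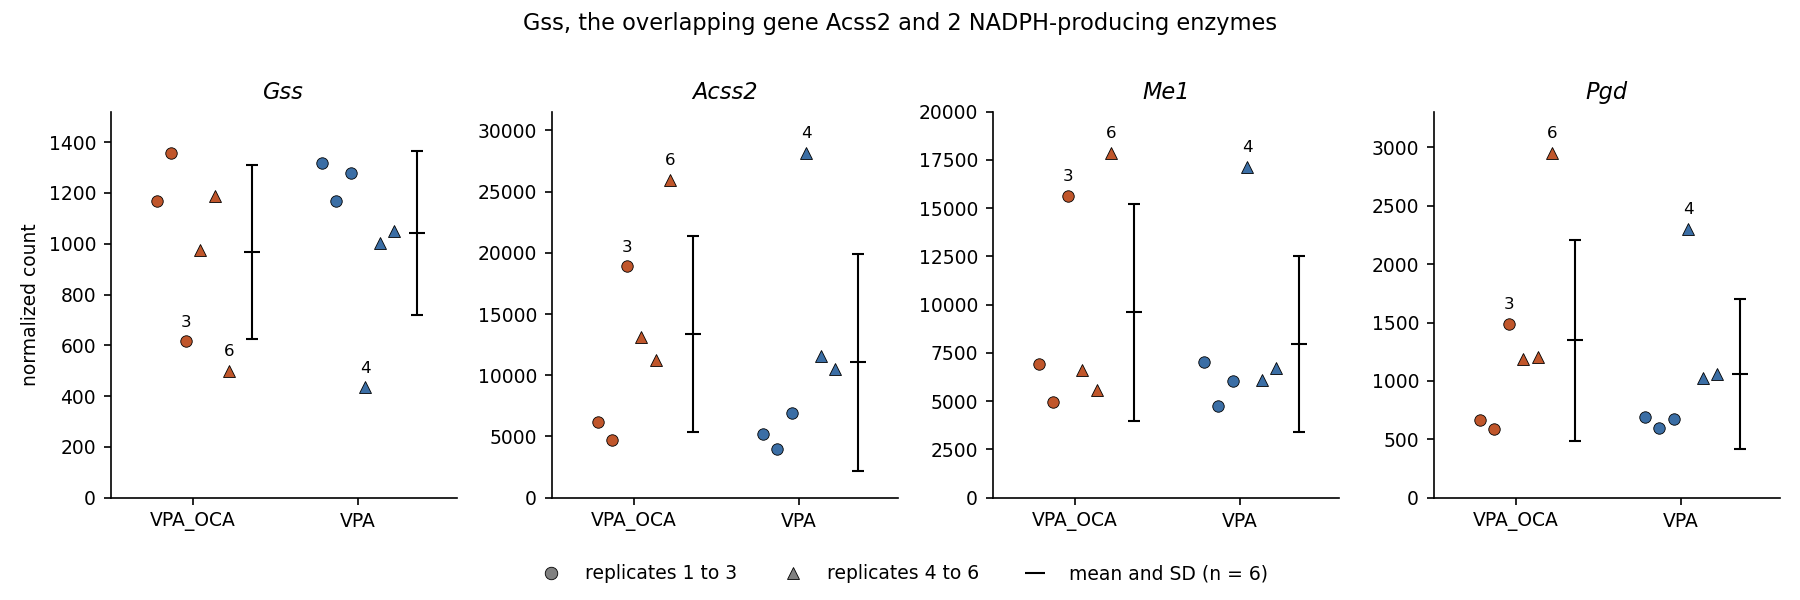
Normalized counts of Gss, the overlapping gene Acss2 and the NADPH-producing enzymes Me1 and Pgd in each library, VPA_OCA left of VPA, with mean and SD (n = 6). Numbers mark VPA_OCA replicates 3 and 6 and VPA replicate 4, which are lowest for Gss and highest for the other genes.

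Long non-coding genes on the opposite strand also share exon bases with Keap1 (Gm16754, 510 bases) and Gclm (Gm17494, 296 bases). Gm16754 reached 7.39 normalized counts in VPA_OCA and 10.8 in VPA, and Gm17494 reached 23.2 in VPA_OCA and 35.1 in VPA, far below the levels of either member. Gss shares exon bases with Gssos2 (385 bases) and Gssos1 (322 bases) as well, both on the opposite strand. Gssos2 reached 5.19 in VPA_OCA and 12.1 in VPA, and Gssos1 reached 1.84 in VPA_OCA and 3 in VPA.

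Gsr (ENSMUSG00000031584, chromosome 8, 33652523 to 33698163), glutathione reductase, returns oxidized glutathione to its reduced form, and measured 532, 653 and 859 in VPA_OCA against 577, 605 and 684 in VPA. Both extremes were VPA_OCA livers. The log2 fold change was 0.11 ± 0.11 (limma adjusted p = 0.85), with 0.01 within numbers 1 to 3 and 0.21 within 4 to 6.

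Srxn1 (ENSMUSG00000032802, chromosome 2, 152105516 to 152111376), sulfiredoxin, reactivates overoxidized peroxiredoxins. It measured 725, 833 and 1103 in VPA_OCA against 559, 695 and 830 in VPA. Means were 857 ± 131 in VPA_OCA and 691 ± 86.4 in VPA (SD, n = 6 each), with a log2 fold change of 0.31 ± 0.11 (SE), a limma p of 0.015 and an adjusted p of 0.33, or 0.18 with the term for the numbers. The groups were apart within numbers 1 to 3, at 817.1 to 866.5 in VPA_OCA and 671.1 to 696.2 in VPA. Within 4 to 6 they overlapped, at 724.7 to 1103 in VPA_OCA and 558.6 to 830.2 in VPA, and the log2 fold changes of 0.30 and 0.32 were alike in size. In the authors' deposited table its adjusted p was 0.078.

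Txnrd1 (ENSMUSG00000020250, chromosome 10, 82833951 to 82897712), the cytosolic thioredoxin reductase, measured 1772, 1844 and 1933 in VPA_OCA against 1690, 1782 and 1826 in VPA. It had narrow ranges, with means of 1844 ± 60 in VPA_OCA and 1768 ± 60.3 in VPA (SD, n = 6 each). The log2 fold change was 0.06 ± 0.07 (limma adjusted p = 0.86), and 0.06 in each set of numbers.

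Slc7a11 (ENSMUSG00000027737, chromosome 3, 49892526 to 50443614) encodes the light chain of the cystine/glutamate exchanger that brings cystine into cells for glutathione synthesis. It was close to the lower limit of the data, at 2.52, 4.81 and 8.34 normalized counts in VPA_OCA against 4.66, 8.04 and 12.2 in VPA, and the authors' table does not call it present. The log2 fold change was -0.57 ± 0.33 (limma adjusted p = 0.65). It measured 4.332 to 8.336 in VPA_OCA and 10.39 to 12.2 in VPA within numbers 1 to 3, and within 4 to 6 the groups overlapped.

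Counted together, 0 of 10 members had values that did not overlap between the groups over all libraries, where 1.44% of all genes had such values. Within numbers 1 to 3 there were 4 of 10, Nqo1 and Srxn1 higher and Gclc and Slc7a11 lower in VPA_OCA, where 18.6% of all genes did not overlap, 9.99% higher and 8.62% lower. Within numbers 4 to 6 there was 1 of 10, Gclm, which was higher, where 16.8% did not overlap and 9.53% were higher. No member passed over all genes within numbers 1 to 3, where 0.637% of genes did. The interaction of group and set was called for 0.0105% of all genes and for no member.

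Per length, the glutathione ligase subunits were the most abundant members and the cystine exchanger the least. The FPKM values use the deposited lengths, for example 1444 bases for Gclm and 1334 for Gss. In GENCODE M21 these genes hold 6291 and 5915 exon bases, and the order between genes depends on the lengths used. Gclm averaged 107 ± 7.06 FPKM in VPA_OCA and 81.6 ± 15.7 in VPA, and Gclc 62.9 ± 7.58 in VPA_OCA and 74.2 ± 6.45 in VPA (SD, n = 6 each). Their FPKM ranges were apart in VPA_OCA (99.9 to 118 for Gclm and 52.4 to 72.9 for Gclc) and overlapped in VPA. Txnrd1, Gss, Nfe2l2 and Srxn1 followed with FPKM means of 32.7 to 38.1 in VPA_OCA and 26.7 to 36.4 in VPA, and their ranges overlapped in VPA_OCA. In VPA the range of Txnrd1, 34.1 to 39.5 FPKM, lay above that of Nfe2l2, 26.9 to 33.6, and both overlapped with Gss. Gsr averaged 25.5 ± 4.63 FPKM in VPA_OCA and 23.3 ± 1.9 in VPA, and Keap1 16.4 ± 2.35 in VPA_OCA and 17.4 ± 1.11 in VPA. Nqo1 averaged 11 ± 2.52 FPKM in VPA_OCA and 7.55 ± 0.605 in VPA. It overlapped with Keap1 in VPA_OCA, where it reached 14 and Keap1 went down to 12.1, and lay below Keap1 in every VPA liver. Slc7a11 averaged 0.0661 ± 0.0287 FPKM in VPA_OCA and 0.105 ± 0.0459 in VPA.

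Around these members, 63 further genes in 4 lists were examined, and none passed over all libraries, where 0.721% of all genes did. Of 12 regulators of NRF2, 6 log2 fold changes were positive and 6 negative, with a median of -0.05, and 4 had an unadjusted p under 0.05, where 9.55% of all genes did. Nfe2l1, the NRF2-related factor that also binds antioxidant response elements, measured 1804 to 2285 in VPA_OCA against 2512 to 2771 in VPA, without overlap (as for 1.44% of all genes). Its means were 2074 ± 213 in VPA_OCA and 2643 ± 95 in VPA (SD, n = 6 each), a log2 fold change of -0.36 ± 0.08 (SE). The limma adjusted p was 0.07, 0.016 with the term for the numbers and 0.081 with the replicate block. Bach1, a repressor that competes for the same elements, averaged 589 ± 68.9 in VPA_OCA and 692 ± 53.9 in VPA (limma adjusted p = 0.39). Btrc, a ubiquitin ligase subunit, averaged 233 ± 26.1 in VPA_OCA and 190 ± 21.9 in VPA, and the kinase gene Gsk3b, which acts with it on NRF2, averaged 349 ± 51.4 in VPA_OCA and 414 ± 33.3 in VPA (SD, n = 6 each).

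Of 24 other NRF2 targets, 18 log2 fold changes were positive and 6 negative, with a median of 0.13. In this list 3 genes had an unadjusted limma p under 0.05, where 9.55% of all genes did. Taldo1, transaldolase of the pentose phosphate pathway, averaged 1997 ± 148 in VPA_OCA and 1569 ± 210 in VPA (SD, n = 6 each), a log2 fold change of 0.36 ± 0.10 (SE). The limma adjusted p was 0.14, 0.031 with the term for the numbers and 0.12 with the replicate block. The organic anion exporter gene Abcc4 averaged 95.5 ± 28.2 in VPA_OCA and 156 ± 53.8 in VPA (limma adjusted p = 0.40). Osgin1 averaged 2620 ± 1709 in VPA_OCA and 1453 ± 530 in VPA (limma adjusted p = 0.53), with VPA_OCA values between 1315 and 5557. The heme oxygenase gene Hmox1, a classical NRF2 target, had a log2 fold change of 0.02 ± 0.27 (SE).

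Of 17 genes of glutathione turnover and cysteine supply, 6 log2 fold changes were positive and 11 negative, with a median of -0.19. Here 3 genes had an unadjusted limma p under 0.05, where 9.55% of all genes did. Chac1, which degrades glutathione in the cytosol and is induced under ATF4, measured 47.7, 78.6 and 108 in VPA_OCA against 19.1, 37.2 and 45.5 in VPA, without overlap. Its log2 fold change was 1.08 ± 0.25 (SE), with a limma adjusted p of 0.071, which was 0.032 with the term for the numbers and 0.10 with the replicate block. Ggct, of the gamma-glutamyl cycle, averaged 142 ± 20.8 in VPA_OCA and 175 ± 17.1 in VPA, and Oplah, which opens 5-oxoproline, averaged 2891 ± 354 in VPA_OCA and 3309 ± 266 in VPA (limma adjusted p of 0.37 and 0.52). Mat1a, which makes S-adenosylmethionine at the head of the liver's route to cysteine, averaged 73353 ± 13741 in VPA_OCA and 87185 ± 4484 in VPA (SD, n = 6 each).

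The ATF4 programme, which in many cell types controls Slc7a11 and Chac1, was listed with 10 genes. Of their log2 fold changes, 3 were positive and 7 negative, with a median of -0.13. An unadjusted limma p under 0.05 was found for 1 of them, where 9.55% of all genes had such a p. Vldlr, the very low density lipoprotein receptor gene, averaged 211 ± 83.9 in VPA_OCA and 462 ± 163 in VPA (SD, n = 6 each), a log2 fold change of -1.14 ± 0.26 (SE). The limma adjusted p was 0.061 over all libraries, and Vldlr passed when the term was added (0.0035) and with the replicate block (0.0044). Sesn2 averaged 185 ± 42.7 in VPA_OCA and 219 ± 32 in VPA, and Ddit3 104 ± 18.5 in VPA_OCA and 121 ± 28.1 in VPA, without passing (limma adjusted p of 0.66 and 0.78). Atf4 itself had a log2 fold change of -0.02.

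With the term for the numbers, 4 of the 63 list genes passed, where 2.13% of all genes did: Taldo1 and Chac1 higher and Nfe2l1 and Vldlr lower in VPA_OCA. With the replicate block Vldlr was the 1 of these that passed. The lists were chosen with earlier results of these data known, so these shares are not an independent comparison.

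**Figure D5:**
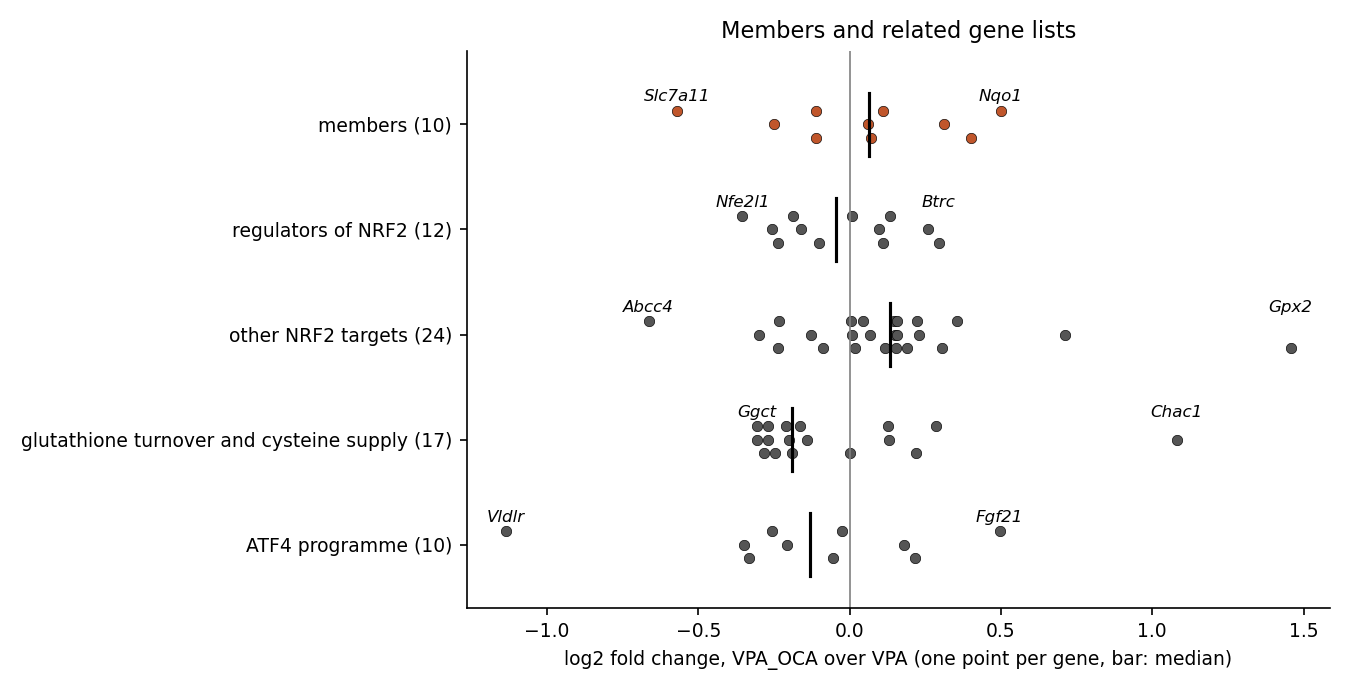
Log2 fold change, VPA_OCA over VPA, of the 10 members and of the genes of 4 related lists, with 1 point per gene and a bar at each median. The medians run between -0.19 for glutathione turnover and cysteine supply and 0.13 for other NRF2 targets, and members run between -0.57 (Slc7a11) and 0.50 (Nqo1).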

How the data were processed

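Liver RNA was sequenced from 12 mice, and groups and replicate numbers were read from the sample titles. Per the labels' protocols, frozen livers gave Trizol-extracted RNA for a TruSeq library kit. The submitters' processing notes list the build GRCm38.p5 and edgeR (version not given); aligner, counter and strand use: not given in the sources used here. Per the file headers, the table of the whole series holds the authors' normalized counts and FPKM values. It also holds the authors' p-values with adjusted p-values, a GC fraction and a length for each gene. The normalized counts are a signal normalized by the authors before deposit, taken here as scaled with 1 factor per library. The headers do not state such a factor. Cells that combine a decimal comma with an exponent were corrected by a division by 1000 (238 p-values, 88 adjusted p-values, 89 normalized counts, 129 FPKM values). Adjusted p-values recomputed after that repair differed from the deposited ones by at most 0.538%. The number of per-sample columns left unused was 0. Only 79.6% to 84.4% of low values lay within 0.1 of a whole multiple of 1 read, so whole reads were not recovered and a count test was not run.

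The filter asked for 1 normalized count or more in 6 or more libraries and left 19006 genes. On log2(value + 1), limma-trend (limma 3.58.1, R 4.3.3) was fitted with the group alone. The fit was also run on simulated counts. These held no division between numbers 1 to 3 and 4 to 6, so they do not cover that feature of the data. Members and lists were chosen with earlier results of these data known. Named beside the members are Slc51b, Cyp8b1 and genes that share exon bases with a member. By rule, the 4 genes of each list with the smallest p are also named, as none passed. Hmox1 and Atf4 were named outside the rule. Alternatives were other filters, pseudocounts, scalings, FPKM with a pseudocount of 0.1, untrended limma, array weights, a replicate block, a term for the numbers, each set of numbers and libraries left out. The data did not pair the samples by replicate number, and the labels give no reason for pairing. Over 11481 genes, same-numbered libraries had correlations of 0.15 to 0.478, and 1 of 6 numbers was a mutual best match. These correlations used deviations from group means, which keep the division between numbers 1 to 3 and 4 to 6. No library was treated as a duplicate, since within-group pairs (30) differed by 17.7 to 199 times the sampling variance. Promoter windows came from RefSeq (GRCm38.p6) and exon overlaps from GENCODE M21. Figures were drawn with matplotlib 3.10.9.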

Additional observations from a re-analysis of the deposited data

Results flagged for a closer look

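A library lay far from the other 5 of its group, by the ratio of its gap to the whole range, for 2 of the 54 sets of 6 values examined. By chance about 1 in 20 sets would show such a gap. Gss measured 434.2 normalized counts in VPA replicate 4, against 1002 to 1319 in the other VPA livers. Srxn1 measured 1103 in VPA_OCA replicate 6, against 724.7 to 866.5 in the other VPA_OCA livers.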

How the results depend on the processing

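Of 19006 genes, 137 passed over all libraries, 210 with the replicate block and 404 with the term for the numbers. There were 187 with array weights, 155 without VPA replicates 4 and 5, 121 within numbers 1 to 3 and 95 within 4 to 6. A minimum of 10 normalized counts gave 164 of 13413 genes. The number was 68 without VPA replicate 4 and VPA_OCA replicates 3 and 6, and 92 to 146 with single libraries left out. The count of members was 0, and became 2 with the term for the numbers (Nqo1 and Gclm) and 1 within numbers 4 to 6 (Gclm). It was 0 with the replicate block (limma adjusted p of 0.056 for Nqo1 and 0.068 for Gclm), in the other alternatives tried and with any single library left out. By the adjusted p in the authors' deposited table, Nqo1 (0.0048) and Gclm (0.011) were under 0.05, where 5.57% of the genes it tested were. The count of list genes, out of 63, was 0 and became 4 with the term for the numbers. It was 1 with the replicate block, array weights, or VPA replicates 4 and 5 left out (Vldlr), with a minimum of 10 normalized counts (Nfe2l1), within numbers 4 to 6 (Fgf21), and without VPA replicate 4 and VPA_OCA replicates 3 and 6 (Chac1). With single libraries left out it was 0 to 1, with Vldlr called without VPA_OCA replicate 1 or VPA replicate 5. The log2 fold change of Gclc was 0.000999 within numbers 4 to 6. That of Gss was 0.113 there, -0.348 without VPA replicate 4, 0.0603 without VPA_OCA replicate 6 and 0.00811 without the 3 livers of lowest Gss. The other members kept their sign in every alternative that gave a value. Slc7a11 had none with the minimum of 10 normalized counts, since fewer than 6 libraries reached it. Causes were not tested, and the values of Slc7a11 are close to the lower limit of the data.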

Other observations

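Fgf21, a hormone of the ATF4 programme made by the stressed or fasted liver, lay on opposite sides in the sets of numbers. Within numbers 4 to 6 it measured 98.44 to 201.2 normalized counts in VPA_OCA and 36.89 to 47.8 in VPA, with a log2 fold change of 1.61 ± 0.26 (SE, n = 3 per group, limma adjusted p = 0.041 in that set). Endothelial, stellate cell, adipocyte and bile duct marker sums did not overlap between the groups in that set either, and their part in this result was not tested. Within numbers 1 to 3 it measured 18.46 to 61.37 in VPA_OCA and 55.01 to 75.03 in VPA, with a log2 fold change of -0.62 ± 0.40 (limma adjusted p = 0.56). The interaction had a limma p of 0.00086 and an adjusted p of 0.31, which did not pass, and over all libraries the log2 fold change was 0.50 ± 0.41 (limma adjusted p = 0.79).

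Gpx2, a glutathione peroxidase best known from the gut epithelium, was listed at 0 in all 3 VPA livers numbered 4 to 6 and at most 1.231 normalized counts in the other VPA livers. In VPA_OCA it measured 0.5607 to 2.08 within numbers 1 to 3 and 2.147 to 7.261 within 4 to 6. Over all libraries its limma adjusted p was 0.21, and all of its values are close to the lower limit of the data.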
